A study of Populus tremula x Populus alba with 14 samples.

Results

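The genes described here were at least 2-fold lower in outer than in inner bark in every old poplar stem sampled and differed little on average between the layers of young stems. They were chosen from a table of 41335 genes by their CPM, the reads of a gene scaled to a common library total. In each numbered stem the log2 ratio of outer to inner CPM, with 1 added to each, had to be at most -1 in all 4 old stems. The mean ratio over the 3 young stems had to lie within 0.4 of zero, and the mean CPM in old inner bark had to be at least 5. This left 109 genes, 0.264% of the table.

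Bark was taken from clone INRA 717-1B4 of Populus tremula x Populus alba, a hybrid poplar described as wild type, and sequenced as outer and inner layers of stems of 2 ages. Old outer bark (4 libraries) was labelled phellem and phellogen and old inner bark (4 libraries) secondary phloem and vascular meristem, both from stems 6 to 8 mm in diameter. Young outer and young inner bark (3 libraries each) carried the same tissue labels and came from stems 4 to 5.5 mm in diameter. The trees were all of this clone, grown in a greenhouse and moved outside in the growing season, and age was given as a label and a diameter, not in years. Whether stems of different numbers were different trees is not stated, so the p-values cover the spread among these stems, whatever its source.

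A woody stem thickens through a pair of ring-shaped meristems. The vascular cambium forms wood towards the inside and secondary phloem, the tissue that conducts sugars, towards the outside. Further out, the phellogen forms the phellem, the corky sheath whose cells deposit suberin and die at maturity. Bulk RNA of a layer reflects both its cells and their activity, so fewer cells of a type and less RNA per cell cannot be told apart in any result below. The files give identifiers and no gene names, so the genes could not be grouped by function and the tissue labels could not be checked against marker genes.

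Library totals lay between 11944485 and 15980636 counts. Both libraries of old stem 1 stood apart from the other libraries of their group, and so did both of young stem 1. Their counts differed from those of other stems of the group by a chi-square per degree of freedom between 59.3 and 149.5, against 17.4 to 36.2 among the other stems. Every pair of replicate libraries differed by more than sampling noise. Of the 109 genes, 98 had at least 10 counts in every library, and the gene with the fewest had 398 counts over all libraries.

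In old stems the genes as a set sat lower in outer than in inner bark, and the young group means of their summed CPM lay between. The median gene had 3.63, 7.47, 9.95 and 5.51 CPM in old outer bark of stems 1 to 4, against 13.5, 30.7, 28.5 and 23.2 CPM in old inner bark. Outer bark of young stems 1, 2 and 4 had 18.3, 21.4 and 14.9 CPM, against 23.6, 24.1 and 19.8 CPM in inner bark. All 4 old outer medians lay below all young ones, while the old inner medians spanned the young inner medians, with stem 1 below them. Summed over the genes, old outer bark had 2053 ± 384 CPM, against 6680 ± 1695 CPM for old inner bark (SD over 4 stems). Young outer bark had 4292 ± 639 CPM, against 5053 ± 512 CPM for young inner bark (SD over 3 stems). The gap between the old layers and the near equality of the young layers are what the genes were chosen for.

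**Figure D1:**
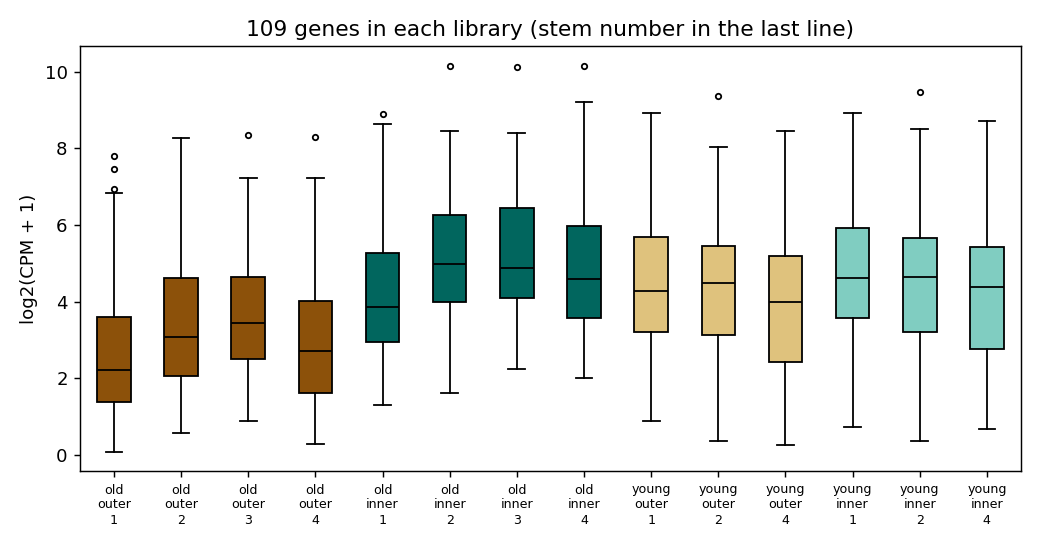
The 109 genes in each library, as log2(CPM + 1) on the vertical axis, with libraries grouped by age and layer. Boxes span the quartiles with the median as a line, whiskers reach the last gene not drawn as an outlier, and circles are outlying genes. The 4 old outer boxes lie lowest, and the old inner library of stem 1, with a median of 13.5 CPM, lies below the other old inner libraries.

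The layer ratios that chose the genes had a median over genes of -1.38, -1.71, -1.56 and -1.86 in old stems 1 to 4. Mean old ratios ran between -2.70 and -1.12, with a median of -1.66. Old stem 1 held the smallest layer difference for 58 of the genes and old stem 4 the largest for 57. For 68 of the 109 genes (62.4%) every old outer library lay below every old inner library. The same held for 6.66% of the 18463 genes with a mean of at least 5 CPM in old inner bark, and nothing is read from that count, since the same ratios chose the genes.

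The young layers were not level. The median young ratio was -0.29 in stem 1, -0.21 in stem 2 and -0.32 in stem 4, and 103 of the 109 genes had a negative young mean. In 68 genes the ratio was negative in all 3 young stems and in 1 gene it was positive in all 3. For the 18463 genes with a mean of at least 5 CPM in old inner bark the median young mean ratio was 0.05, and 44.2% had a negative one. The description "old stems only" therefore holds only for the size of the difference: most of these genes were also slightly lower in young outer than in young inner bark. In the authors' deposited table for young stems, which gives inner over outer bark, 103 of the genes had a positive log2 fold change. The median was 0.37 and the values ran from -0.28 to 0.999. In the authors' deposited table for old stems the median for the genes was 1.93.

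The genes are an edge of a larger set, not a separate cloud. Of 644 genes that met both conditions on old stems, 75 had a young mean ratio of at most -1, 459 lay above -1 and at or below -0.4, and 1 reached at least 0.4. Their median young mean was -0.64. Of the genes chosen, 53 had a young mean at or below -0.3. At the lower bound of -0.4 the nearest gene inside had a young mean ratio of -0.399 and the nearest outside -0.401. At the upper bound the highest young mean ratio inside was 0.312 and the 1 gene outside had 0.472. The weakest old ratio was -1.001 in the nearest gene inside the old bound and -0.989 in the nearest outside. The old inner mean was 5.20 CPM in the nearest gene inside the minimum and 4.94 CPM in the nearest outside.

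**Figure D2:**
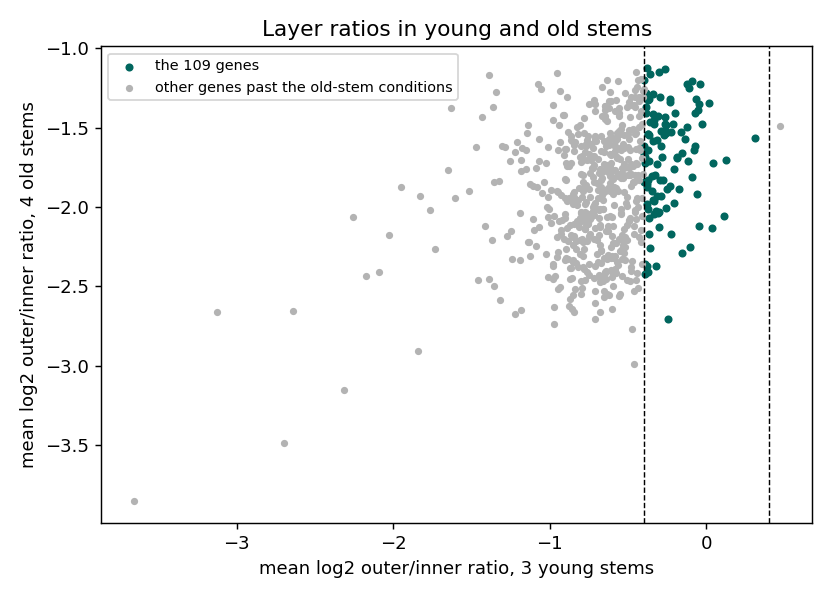
Mean log2 outer to inner ratio in 3 young stems (horizontal) and 4 old stems (vertical) for the 644 genes that met the conditions on old stems. Dashed lines mark a young mean of -0.4 and 0.4. The 109 genes lie between the lines and form the right edge of a continuous cloud, mostly left of zero.

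The strongest layer ratios belonged to a pair of genes with unlike behaviour in young stems. Potri.010G063000 had the most negative mean old ratio, -2.70. It had 8.32, 2.42, 1.73 and 0.745 CPM in old outer bark of stems 1 to 4, against 40.9, 18.1, 20.1 and 15.2 CPM in old inner bark. The young stems had 2.06, 80.7 and 7.18 CPM in outer bark, against 1.70, 95.1 and 12.04 CPM in inner bark. The old layers did not overlap, while young stem 2 was far above the other young stems in both layers. Potri.003G157300, with a mean old ratio of -2.42, had more reads, not scaled for gene length, in both old layers. It had 15.4, 52.9, 51.5 and 26.5 CPM in old outer bark, against 53.5, 345.0, 280.1 and 197.3 CPM in old inner bark. Its level in young stems was 115.8, 53.4 and 55.7 CPM in outer bark, against 148.8, 63.1 and 83.4 CPM in inner bark. Its old inner level was lowest in stem 1, close to the old outer level of stems 2 and 3, and the young libraries lay above all old outer ones.

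How the old gap was made up was described by setting each old layer against the mean of both young layers, as a difference in log2(CPM + 1). The old outer mean was lower than the young mean in 102 of the 109 genes, with a median difference of -1.27. The old inner mean was higher in 78 and lower in 31, with a median difference of 0.43. With a step of 0.5, 61 genes were lower in old outer bark without being higher in old inner bark (lower-outer pattern). In 33 genes old outer bark was lower and old inner bark higher (combined pattern). Another 15 were higher in old inner bark without being lower in old outer bark (higher-inner pattern). Every gene meets at least 1 of these steps, since the rule keeps the old layers at least 1 apart. The rule sets a minimum distance between the old layers but not how that distance splits between them. The minimum CPM in old inner bark does favour higher old inner values. In the lower-outer and higher-inner patterns the other layer could change in the same direction. By edgeR's log2 fold change, old over young, 32 of the 61 were negative and 29 positive in inner bark. Of the 15, 8 were positive and 7 negative in outer bark. Without stem 1 of either age the numbers were 37 for the lower-outer, 45 for the combined and 27 for the higher-inner pattern.

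**Figure D3:**
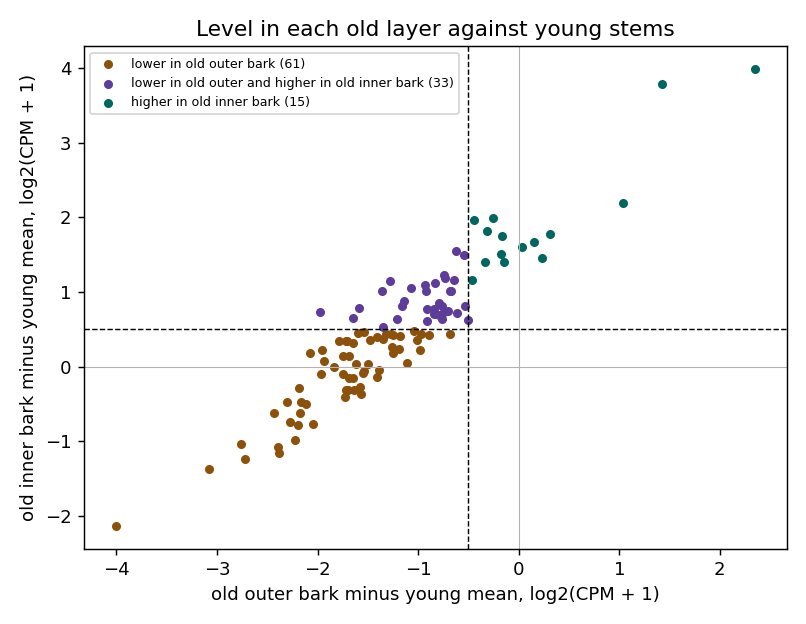
Old outer bark minus the young mean (horizontal) and old inner bark minus the young mean (vertical), in log2(CPM + 1), for the 109 genes. Dashed lines mark the steps of -0.5 and 0.5, and colours mark the 61, 33 and 15 genes of each pattern. Most points lie left of zero and above or near it, and 31 lie below zero on the vertical axis.

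The median of the 61 lower-outer genes was 3.44, 7.75, 10.01 and 6.78 CPM in old outer bark of stems 1 to 4. Old inner bark had 12.8, 29.8, 28.5 and 26.9 CPM. Young stems 1, 2 and 4 had 27.0, 28.8 and 21.97 CPM in outer bark, against 31.0, 31.8 and 27.4 CPM in inner bark. The old inner values of stems 2 to 4 lay within the range of the young libraries. The median of the 15 higher-inner genes was 7.57, 8.11, 11.7 and 5.96 CPM in old outer bark. Old inner bark had 20.2, 35.4, 32.1 and 18.3 CPM. Outer bark of young stems 1, 2 and 4 had 11.1, 6.08 and 3.97 CPM, against 18.9, 6.00 and 5.27 CPM in inner bark. Young stem 1 was high in both layers for these 15 genes, at 18.9 CPM in inner bark, within the range of old inner bark.

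Old and young stems were then compared by test. The rule used no contrast of ages, but it used the old levels, so contrasts within a layer are not independent of it. The contrast of stems with both layers summed is the least tied to the rule, although the minimum in old inner bark favours higher old values. Each stem entered a fit once, and all genes with enough counts were fitted together. All 109 genes passed that count filter in each of the 3 fits.

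In outer bark, old against young, 30 of the 109 genes (27.5%) were lower in old stems and 1 was higher by edgeR's quasi-likelihood test (adjusted p below 0.05). Of the 26740 genes tested, 8.56% were lower and 5.57% were higher in old outer bark. The median log2 fold change of the 109 genes was -1.26 (quartiles -1.63 and -0.57), beside 0.06 over all genes tested, and 101 of the 109 were negative. All 30 lower calls were among the 61 genes of the lower-outer pattern, a placing that the definition of the patterns from the same libraries favours. The CPM ranges were apart, with every old outer library below every young outer library, for 52 of the genes (47.7%), beside 17.1% of the 18463 genes with at least 5 CPM in old inner bark. Since the rule favours low old outer values, these shares describe the genes and support nothing further. Leaving out 1 stem moved the calls of the 109 genes and of the whole table. Without old stem 1 the lower calls were 39 (36.1%, beside 15.3% of all genes tested). They were 25 (22.9%, beside 9.17%) without young stem 1 and 23 (21.3%, beside 6.68%) without old stem 3. The calls of both thinned most without stem 2 or 4 of either age. Lower calls were 1 (0.917%, beside 0.374% of all genes tested) without young stem 2, and 5 (4.59%, beside 1.32%) without young stem 4. They were 6 (5.50%, beside 1.60%) without old stem 2 and 7 (6.42%, beside 2.45%) without old stem 4. DESeq2 called 53 lower (48.6%, beside 16.2%) and 1 higher (0.917%, beside 12%). At an unadjusted p below 0.05 by edgeR there were 57 of the 109 genes in either direction (52.3%, beside 33.8%). The median stayed negative throughout, between -1.41 and -0.92.

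In inner bark, old against young, 10 of the 109 genes (9.17%) were higher in old stems, beside 9.02% of the 25929 genes tested, and 1 was lower (0.917%), beside 12.2%. The median log2 fold change was 0.39 (quartiles -0.16 and 0.99), beside 0.06 over all genes tested. Of the 10 higher calls, 7 were in the higher-inner pattern and 3 in the combined pattern, a placing that the definition likewise favours. Every old inner library lay above every young inner library in 17 genes (15.6%), beside 19.5% of the 18463 genes, and below in 4 (3.67%), beside 15.3%. The share called higher was thus near that of all genes. Higher calls were 21 (19.3%, beside 14.2% of all genes tested) without old stem 1 and 6 (5.50%, beside 5.60%) without old stem 3. Without old stem 2 and without young stem 2 they were 2 each (1.83%), beside 3.37% and 1.48%. Without young stem 4 edgeR called 0 of the 109 genes higher, beside 0.719%, and 13 were higher at an unadjusted p below 0.05 (11.9%, beside 11.4%). DESeq2 called 20 higher (18.3%, beside 15.3%) and 3 lower (2.75%, beside 18.4%). In the fit of all inner libraries 26 genes were at an unadjusted p below 0.05 in either direction (23.9%, beside 38.6%).

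With the layers of each stem summed, 2 of the 109 genes (1.83%) were higher in old stems, beside 7.56% of the 28521 genes tested, and 5 (4.59%) were lower, beside 10.2%. The median log2 fold change was -0.17, beside 0.05 over all genes tested, with 46 genes positive and 63 negative. In this fit these genes were called less often than all genes tested in either direction, and the difference was not tested. Group means of all 14 libraries, which count the layers of a stem as independent, called 8 higher (7.34%, beside 21.6%) and 33 lower (30.3%, beside 24.5%). The median changed sign without old stem 1 (0.02), without young stem 1 (0.01) and without both (0.15). Without young stem 2 or young stem 4 no gene of the table was called by edgeR (0 genes), with 17 (15.6%, beside 26.8% of all genes tested) and 18 (16.5%, beside 25.4%) of the 109 genes at an unadjusted p below 0.05. In the fit of all stems 23 were at an unadjusted p below 0.05 (21.1%, beside 36.7%). DESeq2 called 8 higher (7.34%, beside 14.4%) and 15 lower (13.8%, beside 17.7%).

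**Figure D4:**
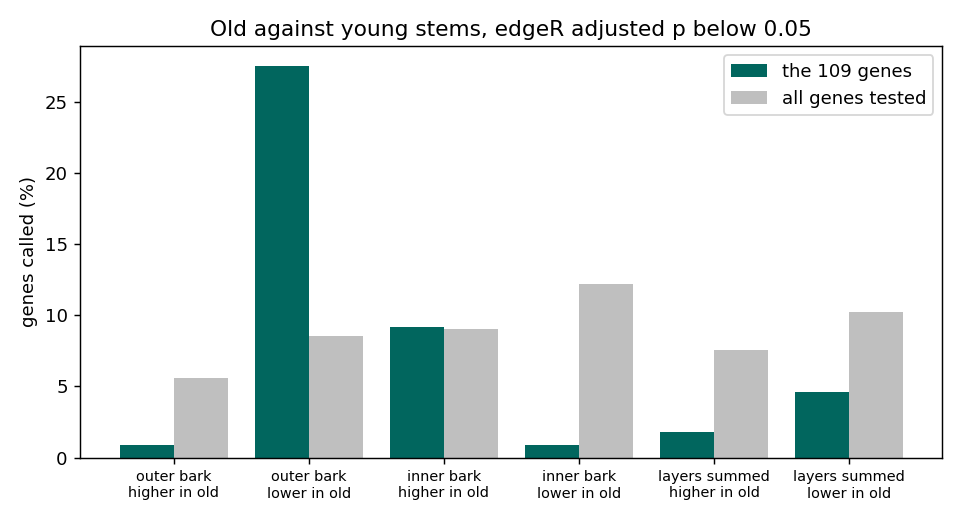
Share of genes called in old against young stems (vertical axis, percent) in outer bark, inner bark and with both layers summed, for the 109 genes and for all genes tested. The share of the 109 genes lies well above that of all genes for lower in old outer bark, at 27.5% beside 8.56%, and near or below it elsewhere.

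The gene furthest up with age was Potri.004G019900, which also had the most reads of the 109, not scaled for gene length, in 6 of the 8 old libraries. It had 122.1, 310.3, 326.2 and 315.0 CPM in old outer bark of stems 1 to 4, against 258.3, 1141, 1122 and 1124 CPM in old inner bark. The young stems had 95.4, 22.5 and 35.2 CPM in outer bark, against 91.3, 27.4 and 66.6 CPM in inner bark. All old libraries lay above all young ones in both layers, and old stem 1 was the lowest old stem in each. The log2 fold change, old over young, was 2.51 ± 0.54 in outer bark (SE; edgeR adjusted p = 0.0287) and 3.91 ± 0.64 in inner bark (SE; edgeR adjusted p = 0.0113). With the layers summed it was 3.42 ± 0.61 (SE; edgeR adjusted p = 0.0177). The outer call was lost when any stem other than stem 1 of either age was left out (edgeR adjusted p up to 0.114). The summed call was lost without old stem 2, young stem 2 or young stem 4 (up to 0.0797) and the inner call without young stem 4 (0.0536).

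Another gene, Potri.003G146800, was also called higher in old stems with the layers summed. It had 7.57, 20.6, 19.4 and 18.8 CPM in old outer bark, against 38.7, 109.4, 84.6 and 72.1 CPM in old inner bark. Its level in young stems was 18.5, 19.7 and 21.4 CPM in outer bark, against 34.5, 10.8 and 19.1 CPM in inner bark. Old and young outer bark overlapped, whereas every old inner library was above every young inner one. With the layers summed its log2 fold change was 1.16 ± 0.33 (SE; edgeR adjusted p = 0.0499). That call was lost without any single stem other than old stem 1, with adjusted p up to 0.162. The gene was also called higher in inner bark, at 1.87 ± 0.44 (SE; edgeR adjusted p = 0.0255), a call lost without young stem 4. Outer bark gave no call, at -0.19 ± 0.30 (SE; edgeR adjusted p = 0.681).

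A low gene, Potri.010G024500, was called in inner bark alone. It had 1.81, 0.498, 1.99 and 0.224 CPM in old outer bark, against 6.14, 2.04, 9.62 and 3.01 CPM in old inner bark. Young stems 1, 2 and 4 had 0.928, 0.362 and 0.189 CPM in outer bark, against 1.63, 0.286 and 0.602 CPM in inner bark. Every old inner library was above every young inner one, by a log2 fold change of 2.68 ± 0.75 in inner bark (SE; edgeR adjusted p = 0.0421). The call was lost without any 1 library except young inner stem 1, with adjusted p up to 0.148.

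On the other side, Potri.010G089300 was furthest down with age. It had 0.375, 1.78, 1.35 and 2.38 CPM in old outer bark, against 6.75, 6.89, 3.74 and 17.8 CPM in old inner bark. Outer bark of young stems 1, 2 and 4 had 3.25, 118.3 and 70.4 CPM, against 5.49, 136.8 and 87.7 CPM in inner bark. Young stem 1 was far below the other young stems in both layers and overlapped with old inner bark. The log2 fold change was -5.43 ± 1.13 in outer bark (SE; edgeR adjusted p = 0.0273) and -3.84 ± 1.02 with the layers summed (SE; edgeR adjusted p = 0.0426). In inner bark it was -3.13 ± 0.96 (SE; edgeR adjusted p = 0.0546). The summed call was lost without any 1 stem except young stem 1, with adjusted p up to 0.134, and the outer call without old stem 2, 3 or 4 or young stem 2 or 4, up to 0.0918.

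Potri.014G029100 had 3.44, 4.98, 8.09 and 5.37 CPM in old outer bark, against 8.98, 16.5, 28.5 and 34.5 CPM in old inner bark. The young stems had 18.2, 109.2 and 37.0 CPM in outer bark, against 17.3, 91.05 and 42.3 CPM in inner bark. The outer ages were apart while the inner ages overlapped. In outer bark its log2 fold change was -3.29 ± 0.62 (SE; edgeR adjusted p = 0.0223), and the call was lost without old stem 2 or 4 or young stem 2 or 4, with adjusted p up to 0.0734.

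Of the genes named, Potri.019G091500 varied least between young libraries. It had 4.76, 4.27, 5.13 and 6.56 CPM in old outer bark, against 13.96, 13.0, 11.98 and 18.8 CPM in old inner bark. Its level in young stems was 29.8, 31.6 and 30.0 CPM in outer bark, against 30.5, 32.7 and 32.7 CPM in inner bark. Old and young libraries were apart in both layers, and so were the old layers. This was the only gene called lower in both layers, by log2 fold changes of -2.46 ± 0.20 in outer bark (SE; edgeR adjusted p = 0.00855) and -1.10 ± 0.20 in inner bark (SE; edgeR adjusted p = 0.0135). The inner call was lost without young stem 2 or 4, with adjusted p up to 0.0617. With the layers summed the log2 fold change was -1.65 ± 0.20 (SE; edgeR adjusted p = 0.0133), a call also lost without young stem 2 or 4.

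Potri.017G126500 had 3.63, 7.68, 7.89 and 2.98 CPM in old outer bark, against 9.97, 17.3, 19.8 and 9.795 CPM in old inner bark. Young stems 1, 2 and 4 had 13.5, 50.3 and 27.3 CPM in outer bark, against 15.3, 45.9 and 33.7 CPM in inner bark. Its outer ages were apart and its inner ages overlapped. With the layers summed the log2 fold change was -1.67 ± 0.47 (SE; edgeR adjusted p = 0.0497), lost without any 1 stem except young stem 1, with adjusted p up to 0.173.

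**Figure D5:**
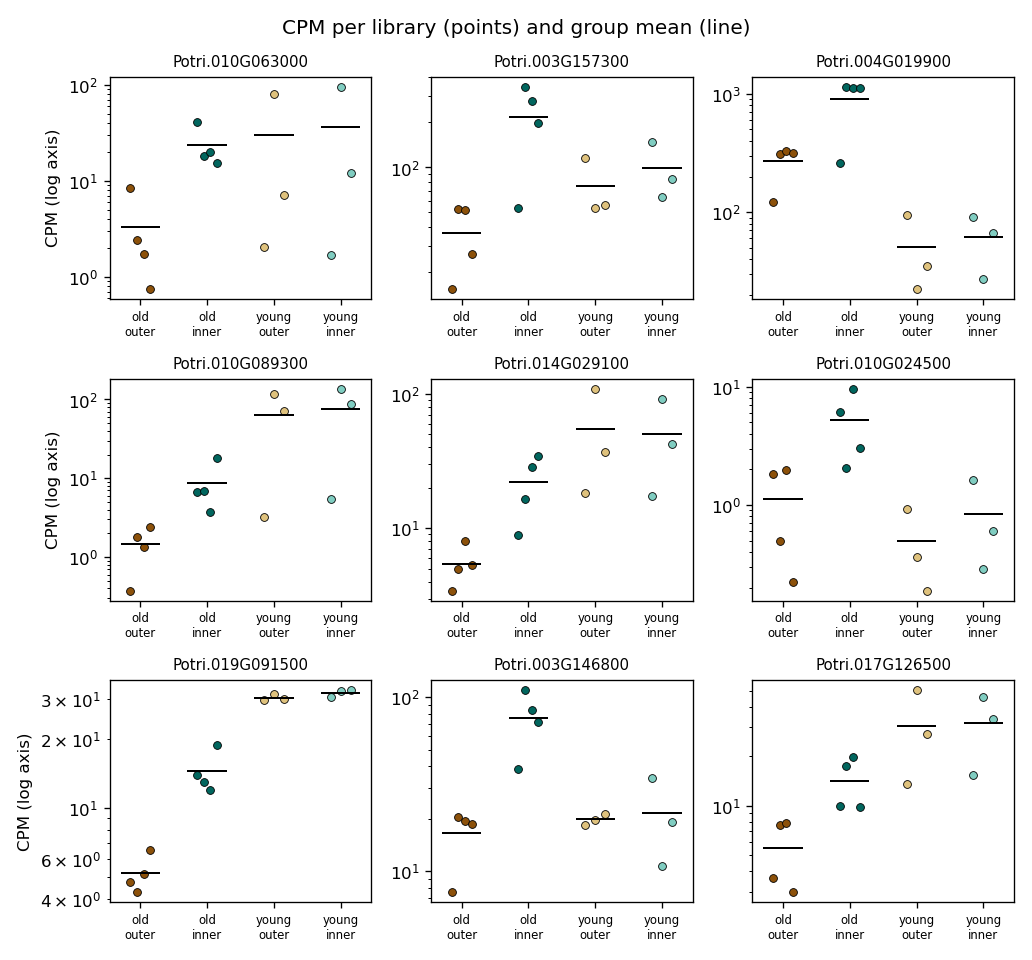
CPM per library on log axes for the 9 genes named, with old outer, old inner, young outer and young inner bark from left to right. Points are libraries and lines are group means. Potri.004G019900 lies above its young level in both old layers, Potri.019G091500 below it in both.

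Genes that were at least 2-fold lower in outer bark in every pair of both ages, with the same minimum in old inner bark, numbered 41 and form a set with the opposite young condition. The median difference in log2(CPM + 1), old minus young, was -1.12 in outer bark and 0.25 in inner bark for the 109 genes. For the 41 genes it was -1.61 in outer bark and -1.27 in inner bark. Over the 18463 genes with at least 5 CPM in old inner bark it was 0.01 in outer and 0.10 in inner bark. The sets were chosen on these libraries, so the difference between them was not tested.

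Old stem 1 was the lowest of the 4 stems for 70 of the 109 genes in outer bark (64.2%) and for 81 in inner bark (74.3%). Among the 18463 genes it was the lowest for 51.7% in outer and 46.8% in inner bark. In young stems, stem 4 was the lowest for 68 genes in outer bark (62.4%, beside 32.5%) and 63 in inner bark (57.8%, beside 30.7%). The part of either stem in the results was not tested beyond leaving stems out.

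Position was read from the identifiers, whose digits before the G give the chromosome in the naming of Populus trichocarpa gene models. Chromosome 10 held 15 of the 109 genes (13.8%), beside 7.05% of the 18463 genes, and chromosome 1 held 6 (5.5%), beside 11.8%. Within 10 rows of the table, which is ordered by identifier, 12 of the genes had another of the 109 as a neighbour, in 5 groups. The longest were 3 genes within 4 rows on chromosome 10, all of the lower-outer pattern, and 3 genes within 14 rows on chromosome 11, all of the combined pattern. Each of the 109 was paired with every gene of its chromosome within 10 rows that reached a mean of 5 CPM in old inner bark. In 1.46% of these 1095 pairs the flanking gene was itself among the 109, beside 0.59% of all genes at that level. A gene flanking several of the 109 entered once for each. Whether neighbouring genes are near-identical copies whose reads the counting could split was not tested, so their values are uncertain.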

How the data were processed

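The authors deposited raw read counts per gene, whole numbers not normalized, per the file headers and values. HTSeq, DESeq, edgeR, Cufflinks, TopHat, Bowtie, Trimmomatic and CASAVA appear in the submitters' processing notes, without versions or roles. For the genome build, nothing is given in the sources used here. The RNA protocol was unstranded (labels' protocols), which leaves overlapping antisense genes indistinguishable. The authors also deposited tables comparing the layers, with log2 fold changes (inner over outer bark, by their sign against the counts) and log2 CPM per the file headers. The p-values in those deposited tables were not used here, nor were the normalized counts, a score in whole numbers per the file headers. Raw counts repeated there matched the main table in 100% of values. No per-sample column lacked a sample (0 columns).

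CPM was scaled by the library total, without TMM. Outer and inner libraries of a number were taken as the same stem: their deviations from group means correlated at 0.735 to 0.907 in old and 0.842 to 0.889 in young stems. The labels do not state this pairing. Young stem 4 carries the leading title numbers 20 (outer) and 9 (inner), where other pairs have consecutive ones, and its layers correlated at 0.842, above 0.211 at most with another young stem. Ages were compared with edgeR 4.0.16 (R 4.3.3; filterByExpr, TMM, robust quasi-likelihood F test, Benjamini-Hochberg over all genes tested, threshold 0.05), for each layer alone and for summed layers, with old minus young. The fits were checked on simulated counts. DESeq2 1.42.0, limma 3.58.1, other scalings, filters and the replicate block were alternatives. The layer ratios chose the genes and were not tested.

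The members and lists were chosen with earlier results of these data known. Gene lists and marker lists set by product name could not be filled, since no names were paired with identifiers. Genes named are, at most 2 per direction, those with the most negative mean old ratio and, per age contrast, those past the threshold with the largest fold changes. Every gene named met this rule.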

Additional observations from a re-analysis of the deposited data

Results flagged for a closer look

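In groups of 4 libraries, Dixon's criterion was applied to library measures, to the layer ratio and to each named gene's CPM. Of 27 such sets, 4 held one, where chance gives about 1 in 20, and the sets share libraries. Potri.004G019900 was at 122.1 CPM in old outer bark of stem 1 and at 258.3 CPM in old inner bark of stem 1, below the other old stems of each layer. Potri.003G146800 was at 7.57 CPM in old outer bark of stem 1, also the lowest. The total count of old inner bark of stem 4 was 11944485, the lowest of its group.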

How the results depend on the processing

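The number of genes that met the rule depended on its settings. It was 65 with TMM-scaled CPM (64 of them among the 109). A pseudocount of 0.5 gave 110 (98 among the 109) and a pseudocount of 5 gave 49 (36 among the 109). Old ratios of at most -0.8 and -1.2 gave 172 and 60, and young means within 0.6 and 0.2 gave 275 and 29. Leaving out a stem pair gave 89 to 179 genes, and leaving out stem 1 of both ages, an alternative chosen after seeing the data like the scaled sums, gave 192 (84 among the 109). With a step of 1 in place of 0.5, 25 genes were in the higher-inner pattern, 3 showed both changes and 17 neither. With 0.3, 55 showed both. Without stem 1 of both ages, 27 were in the higher-inner and 37 in the lower-outer pattern.

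Over all genes, 3779 were called between the ages in outer bark, 5505 in inner bark and 5068 with the layers summed. DESeq2 called 7526, 8758 and 9140, the group means of all 14 libraries 6093 in outer bark and 12751 for the layers together, and the fits without stem 1 of both ages 9166, 10421 and 11120. Group means count the layers of a stem as independent. Leaving out 1 sample gave 125 to 7285, 861 to 8056 and 0 to 8784.

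Of the 109 genes, 30 were called lower (27.5%, beside 8.56% of all genes tested) and 1 higher (0.917%, beside 5.57%) in old outer bark. Lower calls were 53 by DESeq2 (48.6%, beside 16.2%) and 1 to 39 with 1 library left out. Higher calls were 0 to 1 with 1 library left out (0% to 0.926%, beside 0.0844% to 12.2%). Without stem 1 of both ages they were 3 (2.78%, beside 14.6%). In inner bark the 10 higher and 1 lower were 20 and 3 by DESeq2 (18.3% and 2.75%, beside 15.3% and 18.4%). Without stem 1 of both ages they were 27 and 8 (24.8% and 7.34%, beside 18.5% and 21.2%). With 1 library left out they were 0 to 21 and 0 to 4, the lower calls 0% to 3.67%, beside 2.54% to 17.1%. Group means gave 2 lower (1.83%, beside 14.9%). With the layers summed the 2 higher and 5 lower were 8 and 15 by DESeq2 (7.34% and 13.8%, beside 14.4% and 17.7%). By group means they were 8 and 33 (7.34% and 30.3%, beside 21.6% and 24.5%). Without stem 1 of both ages they were 14 and 15 (12.8% and 13.8%, beside 17.3% and 21.3%). By limma on stem means they were 1 and 8 (0.917% and 7.34%, beside 8.51% and 12.9%), and with 1 stem left out 0 to 5 and 0 to 9. Lower calls were 8 under RLE factors (7.34%, beside 10.6%), and higher calls were 1 with either other count filter (0.917%, beside 5.13% or 8.35%). The shares called among all genes tested moved too. With 1 sample left out, lower calls in outer bark were 0.917% to 36.1% of the 109 genes, beside 0.374% to 15.3% of all genes, and higher calls in inner bark 0% to 19.3%, beside 0.719% to 14.2%. With the layers summed, higher calls were 0% to 4.59%, beside 0% to 14.1%, and lower calls 0% to 8.26%, beside 0% to 16.8%. Without stem 1 of both ages, 41.7% were lower in outer bark, beside 19.4%. The cause of these changes was not tested.

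Stem numbers 1, 2 and 4 occur at both ages. Deviations of same-numbered old and young libraries correlated between -0.159 and 0.244, beside -0.294 to 0.307 for different-numbered ones. Few libraries share a number, so these values cannot settle whether a number links the ages. With the number as a replicate block, 222 genes were called in outer bark, 1367 in inner bark and 0 with the layers summed (8177 at an unadjusted p below 0.05). Of the 109 genes the block left 0 higher (beside 0.116% of all genes tested) and 1 lower (0.917%, beside 0.714%) in outer bark. In inner bark it left 1 higher (0.917%, beside 1.28%) and 0 lower (beside 3.99%). With the layers summed it left 0 in either direction, with 20 at an unadjusted p below 0.05 (18.3%, beside 28.7%).

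Of 148 age values of the named genes under alternatives, 87 kept direction and call, 61 kept direction without the call and 0 reversed. The effect of depth on the calls was not tested. Of the 109 genes, 98 had at least 10 counts in every library.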
